A study of Mus musculus with 6 samples.

Results

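The genes described here are 9 cytoplasmic tyrosine kinases that work beside BCR-ABL1: Fyn, Blk, Lck and Yes1 of the Src family, Csk, Abl1, Tec, Zap70 and Ptk2b. They were chosen by name, with earlier results of these samples known. Of the 9, 8 were measured, out of 19938 genes with a probe set that names 1 gene. Lck was not analysed here. Each of the 8 is read by 1 such probe set, so no choice between probe sets was involved.

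The 6 samples are mouse pre-B cells that had been transformed by BCR-ABL1, a fusion kinase and the driver of Philadelphia chromosome-positive acute lymphoblastic leukaemia. All carried Sox4fl/fl, that is, loxP-flanked alleles of the transcription factor gene Sox4, on a 129SvEv x C57BL/6J background, from mice aged 5 weeks. Transduction added ERT2, a ligand-binding domain taken from the oestrogen receptor, to 3 of the samples, and Cre-ERT2, a recombinase that 4OHT (4-hydroxytamoxifen) activates, to the other 3. RNA was taken 24 h after 4OHT was used to induce the deletion. Every sample thus shares the oncogene, the floxed alleles and an ERT2 construct, and none pairs Cre-ERT2 with unfloxed Sox4, so loss of Sox4 and activity of Cre cannot be told apart. The labels do not say whether the cells were clones, or whether the 3 samples of a group were separate cultures, so p-values rest on a spread that may be partly or wholly technical.

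Values are array intensities from RMA on a linear scale, with medians of 273 to 279 per array, and precision is limited by how few arrays there are. Differences are Cre-ERT2 minus ERT2 on the log2(intensity + 1) scale, with limma's standard error (SE), and a gene is said to have risen or fallen where limma's adjusted p over all 35556 probe sets was under 0.05. Probes differ in how brightly they bind, so the level of a probe set is placed only roughly, against all probe sets of an array. As a check of the labels, Sox4 itself fell by 1.31 (SE 0.0912, adjusted p = 0.000434 by limma), to 40.3% of the control mean. Of 13 pre-B cell markers 12 read above the array median on all 6 arrays, among them Cd79a, Cd79b, Igll1, Vpreb1 and Pax5. The same held for 2 of 12 T-cell markers (Cd5 and Bcl11b), 0 of 9 NK-cell markers, 2 of 9 myeloid markers, 0 of 3 erythroid markers and 3 of 7 stromal markers. No marker was listed at 0, and RMA intensities have no true zero.

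Cytoplasmic tyrosine kinases pass signals from receptors that have no kinase of their own. Src-family kinases sit at the inner face of the membrane, and phosphorylate the tyrosines of paired activation motifs (ITAMs) in antigen receptors and pre-B cell receptors. Syk-family kinases such as Zap70 dock on those phosphorylated motifs, and Tec-family kinases then help to activate phospholipase C gamma. Csk holds Src-family kinases inactive by phosphorylating their tail, and Abl1 is the kinase that becomes oncogenic when it is fused to BCR. In BCR-ABL1 leukaemia several Src-family kinases are known to act below the fusion protein.

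Zap70 fell and Ptk2b rose in the Cre-ERT2 samples, while the 3 measured Src-family kinases, Csk, Abl1 and Tec did not pass the test. That is 2 of 8 kinases called (1 higher and 1 lower), beside 8.1% of all 19938 genes, of which 4.38% rose and 3.72% fell. Over all probe sets, named or not, 6.05% were called. With 8 genes, a count of 2 is too small to set the group apart, and no test of the share was made. The median difference of the 8 kinases was -0.06, beside 0.02 over all genes. Their median size of difference, without regard to sign, was 0.12, beside 0.07 over all genes. In 3 of the 8 (Zap70, Ptk2b and Tec) the values of the groups did not overlap, which was so for 28.3% of all genes.

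**Figure D1:**
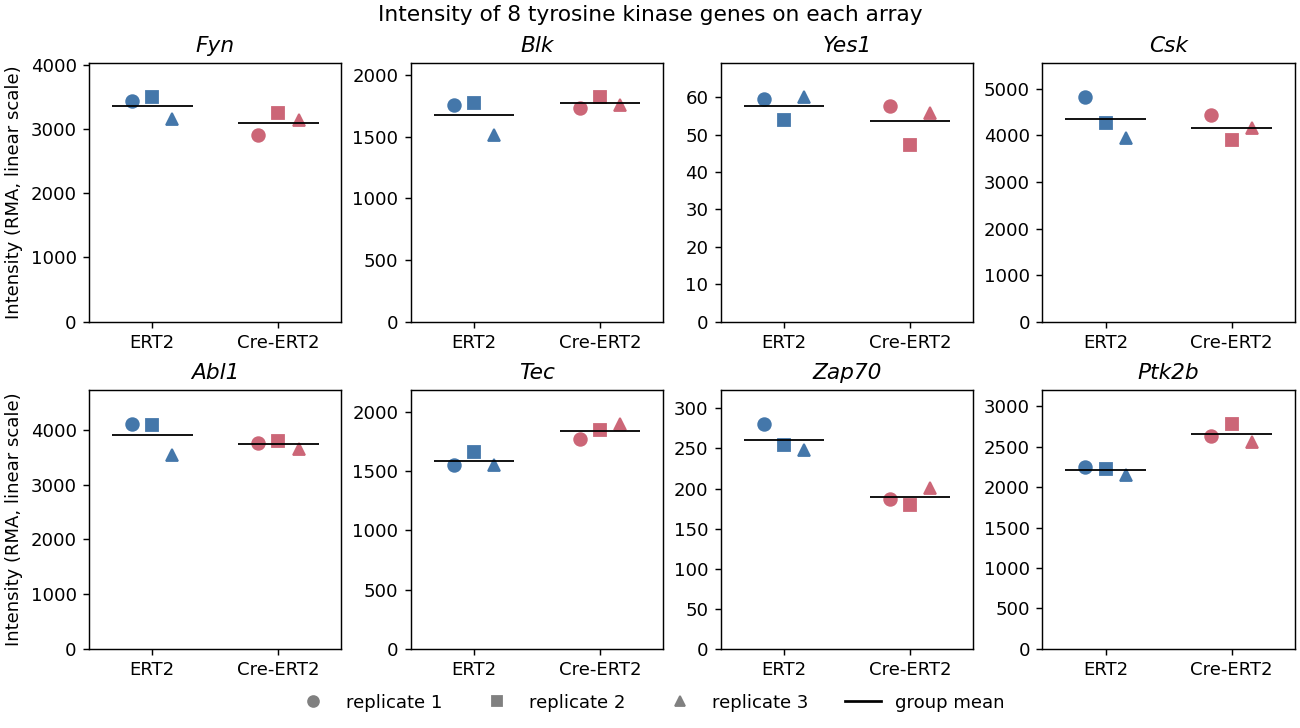
Intensity (RMA, linear scale, from 0) of the 8 measured kinase genes on each array, with ERT2 in blue, Cre-ERT2 in red, symbols for replicates and a line at each group's mean. Zap70 lies lower and Ptk2b and Tec lie higher on all 3 Cre-ERT2 arrays than on any ERT2 array, whereas the groups overlap for Fyn, Blk, Yes1, Csk and Abl1.

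Zap70 encodes the Syk-family kinase that T cells use at the T-cell receptor, and it is also found in early B cells and in some B-cell leukaemias. Its probe set (10345509) read 281, 255 and 248 on the 3 ERT2 arrays, and 187, 180 and 200 on the 3 Cre-ERT2 arrays. Every Cre-ERT2 sample lay below every control, and the gap between the groups was wide next to the spread inside them. The mean went from 261 ± 17.5 (SD, n = 3) to 189 ± 10.2 (SD, n = 3), which is 72.3% of the control mean. The difference was -0.46 on the log2 scale (SE 0.0695, 95% interval from -0.63 to -0.30, adjusted p = 0.0115 by limma). An exact permutation test (two-sided) gave p = 0.1, below which 3 against 3 values cannot go. Of the 19938 genes 479 fell further than Zap70.

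In whole samples such as these, fewer cells with Zap70 and less Zap70 RNA per cell cannot be told apart. Zap70 is a dim gene here: between 37.6% and 50.8% of all probe sets read lower on a given array. Its call was lost without Cre-ERT2 replicate 1 (adjusted p = 0.0512 by limma) and without Cre-ERT2 replicate 2 (0.0531), where the difference was -0.46 and -0.43. Over all 17 alternatives that tested it the difference stayed between -0.51 and -0.41, with adjusted p from 0.00125 to 0.0531.

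Because Zap70 is abundant in T and NK cells, the markers of those cells were set beside it. Of 12 T-cell markers 0 fell and 1 rose, Cd5, which is also expressed by some B cells (0.56, SE 0.0676, adjusted p = 0.0048 by limma). That is 8.33% called, near the 8.1% of all genes. The defining T-cell receptor subunits Cd3e, Cd3d, Cd3g and Cd247 had differences of -0.0035, -0.11, -0.21 and -0.08, none past the test. Limma's unadjusted p was under 0.05 for 3 T-cell markers (Cd5, Cd3g and Cd28). In Cd3g and Cd247 every Cre-ERT2 value lay below every control, and in Cd5, Cd28 and Cd8b1 every one lay above. Over all genes the groups did not overlap in 28.3%. The summed intensity of the T-cell list ran from 2382 to 2549 in ERT2 and from 2514 to 2753 in Cre-ERT2 samples, so the 2 ranges overlapped. Cd5, whose mean went from 385 to 566, is part of that sum. For the 9 NK-cell markers the sums ran from 884 to 908 and from 875 to 919, and 0 rose and 0 fell by limma. One of them, Klrd1, had an unadjusted p under 0.05 by limma (0.0313), with a difference of -0.28. Every Cre-ERT2 value of Klrd1 lay below every control, and the gene was dim, with means of 56.2 in ERT2 and 45.8 in Cre-ERT2 samples. The part of other cells in the fall of Zap70 was not tested beyond these values.

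Syk, the closest relative of Zap70 and the kinase that pre-B cells rely on at their receptor, had a difference of -0.08 (SE 0.049, adjusted p = 0.505 by limma), with a mean intensity of 3734 in ERT2 samples. Every Cre-ERT2 value of Syk lay below every control, by a small margin. Groups that did not overlap, in either direction, were found for 28.3% of all genes. Whether the fall of Zap70 differs from the value of Syk was not tested. The ITAM-bearing receptor subunits to which both kinases dock did not pass limma's test in any of 8 cases (0 rose and 0 fell, median -0.06), and 1 of them, Cd3g, had an unadjusted p under 0.05. Cd79a and Cd79b, the signalling pair of the pre-B cell receptor, had differences of -0.07 and 0.03.

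Ptk2b encodes PYK2, the relative of focal adhesion kinase that calcium, integrins and chemokine receptors activate, and that works together with Src-family kinases. Its probe set (10420957) read 2255, 2230 and 2155 on the ERT2 arrays, and 2632, 2785 and 2554 on the Cre-ERT2 arrays. All 3 Cre-ERT2 values lay above all 3 controls, which were close together. The mean went from 2213 ± 52.0 (SD, n = 3) to 2657 ± 118 (SD, n = 3), or 120.0% of the control mean. The difference was 0.26 (SE 0.0531, 95% interval from 0.14 to 0.39, adjusted p = 0.0381 by limma), and the exact two-sided permutation test gave p = 0.1, the smallest possible. The rise is small: 1075 genes rose further, and it lies inside the 95th percentile of all genes, which was 0.28.

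The call of Ptk2b depended on the full set of arrays. Leaving out any 1 of the 6 put its adjusted p between 0.072 (without ERT2 replicate 2) and 0.141 (without Cre-ERT2 replicate 2), with differences between 0.23 and 0.29. After median centring of the arrays its adjusted p was 0.0539 by limma, and with the replicate number as a block it was 0.0681. Focal adhesion kinase itself, Ptk2, was not analysed here. Among the proteins that meet PYK2 at adhesions, Pxn (paxillin) rose by 0.26 (adjusted p = 0.0495 by limma), but each array left out in turn ended that call (0.0796 to 0.163), as did median centring, robust fitting, a further quantile normalization, no pseudocount or averaging of a gene's probe sets (0.0504 to 0.0628). Bcar1, which encodes the scaffold p130Cas, had a difference of 0.02.

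Tec encodes the founding member of the kinase family that includes Btk and acts on phospholipase C gamma. It read 1556, 1663 and 1550 on the ERT2 arrays and 1775, 1852 and 1901 on the Cre-ERT2 arrays (probe set 10530536). The groups did not overlap, but the difference did not pass the test across the array. It was 0.21 (SE 0.0541, 95% interval from 0.08 to 0.34, adjusted p = 0.0848 by limma), and the means were 1590 ± 63.2 (SD, n = 3) and 1843 ± 63.7 (SD, n = 3). Tec passed when fewer probe sets were tested, that is, among the brighter ones (adjusted p = 0.0356 by limma) or among those that name 1 gene (0.0337), and with estimated array weights (0.014). Its relative Btk had a difference of -0.12 (adjusted p = 0.423 by limma), and Txk and Bmx had 0.02 and -0.08. Whether Tec differs from Btk was not tested.

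**Figure D2:**
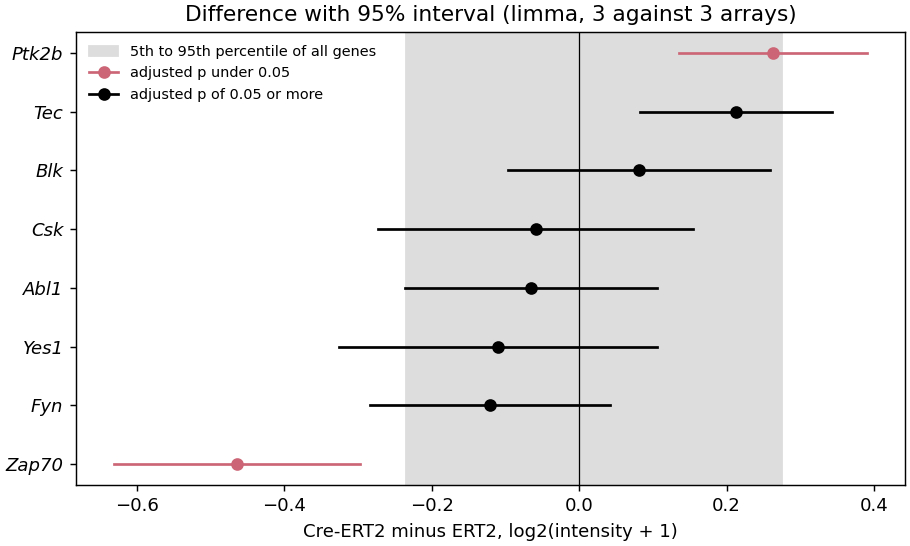
Difference between Cre-ERT2 and ERT2 samples on the log2(intensity + 1) scale for the 8 kinases, with limma's 95% interval from 3 against 3 arrays, in red where the adjusted p was under 0.05. The grey band spans the 5th to the 95th percentile of all genes (-0.24 to 0.28). Zap70 at -0.46 lies outside the band, and the other 7 lie inside it.

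None of the measured Src-family kinases passed the test. Fyn, which acts in lymphocyte receptor and adhesion signalling, read 3442, 3499 and 3149 in ERT2 and 2899, 3249 and 3133 in Cre-ERT2 samples (probe set 10362596). Of the 3 Cre-ERT2 values 2 lay below all controls, and replicate 2 lay among them. The difference was -0.12 (SE 0.0676, 95% interval from -0.28 to 0.04, adjusted p = 0.462 by limma).

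Blk is the Src-family kinase most closely tied to the B lineage, and is known to act at the pre-B cell receptor. It read 1754, 1771 and 1510 in ERT2 and 1731, 1822 and 1758 in Cre-ERT2 samples (probe set 10420758), so ERT2 replicate 3 alone stood low and the other 5 values lay close together. The difference of 0.08 (SE 0.074, 95% interval from -0.10 to 0.26, adjusted p = 0.703 by limma) shrank to 0.0063 without that array.

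Yes1, a broadly expressed Src-family kinase, was dim. It read 59.4, 53.8 and 60.1 in ERT2 and 57.7, 47.2 and 55.8 in Cre-ERT2 samples (probe set 10520965), below the lowest quartile of probe sets, which ended between 114 and 120 on each array. The groups overlapped, and replicate 2 was the lowest of each. The difference was -0.11 (SE 0.0897, 95% interval from -0.33 to 0.11, adjusted p = 0.654 by limma), and at this brightness a change of Yes1 may not have been detectable.

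Csk, the kinase that silences the Src family, read 4829, 4269 and 3944 in ERT2 and 4436, 3908 and 4150 in Cre-ERT2 samples (probe set 10593966). Its controls spanned 0.29 on the log2 scale, the widest of the 8 kinases, against a difference between groups of -0.06 (SE 0.089, 95% interval from -0.27 to 0.15, adjusted p = 0.839 by limma). The sign of that difference turned without ERT2 replicate 1 (0.02). Matk, which encodes the Csk-homologous kinase, had a difference of -0.16 (adjusted p = 0.216 by limma), with groups that did not overlap.

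Abl1 read 4116, 4099 and 3539 in ERT2 and 3758, 3794 and 3657 in Cre-ERT2 samples (probe set 10471201). As with Blk, ERT2 replicate 3 was the low one of the controls, and all Cre-ERT2 values lay between it and the other controls. The difference was -0.07 (SE 0.0712, 95% interval from -0.24 to 0.11, adjusted p = 0.758 by limma). The sources used here do not say whether this probe set also reads RNA of the BCR-ABL1 fusion, so the value cannot be assigned to the normal gene alone. Abl2, the related kinase, had a difference of -0.10 (adjusted p = 0.358 by limma), with groups that did not overlap. Bcr, the mouse gene of the fusion partner, had a difference of 0.04.

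The intervals of Fyn, Blk, Csk and Abl1 reach no further than -0.28 below and 0.26 above 0 on the measured scale. No such bound is drawn for Yes1, which was too dim. That a gene missed the threshold does not show that its level was the same in both groups.

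The same control array read low in most of these genes. In 7 of the 8 kinases ERT2 replicate 3 was the lowest control, the exception being Yes1. Over all genes that array was the lowest control in 43.4%, and over the 4985 brightest genes in 65.9%. Without it, the differences of Ptk2b and Tec were 0.24 and 0.20, and that of Zap70 was -0.50. Under cyclic loess, which removes differences between arrays that follow intensity, Ptk2b (0.23) and Zap70 (-0.49) kept their calls (adjusted p = 0.036 and 0.0105 by limma), and Fyn, Blk, Csk and Abl1 had differences of -0.15, 0.05, -0.08 and -0.09.

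**Figure D3:**
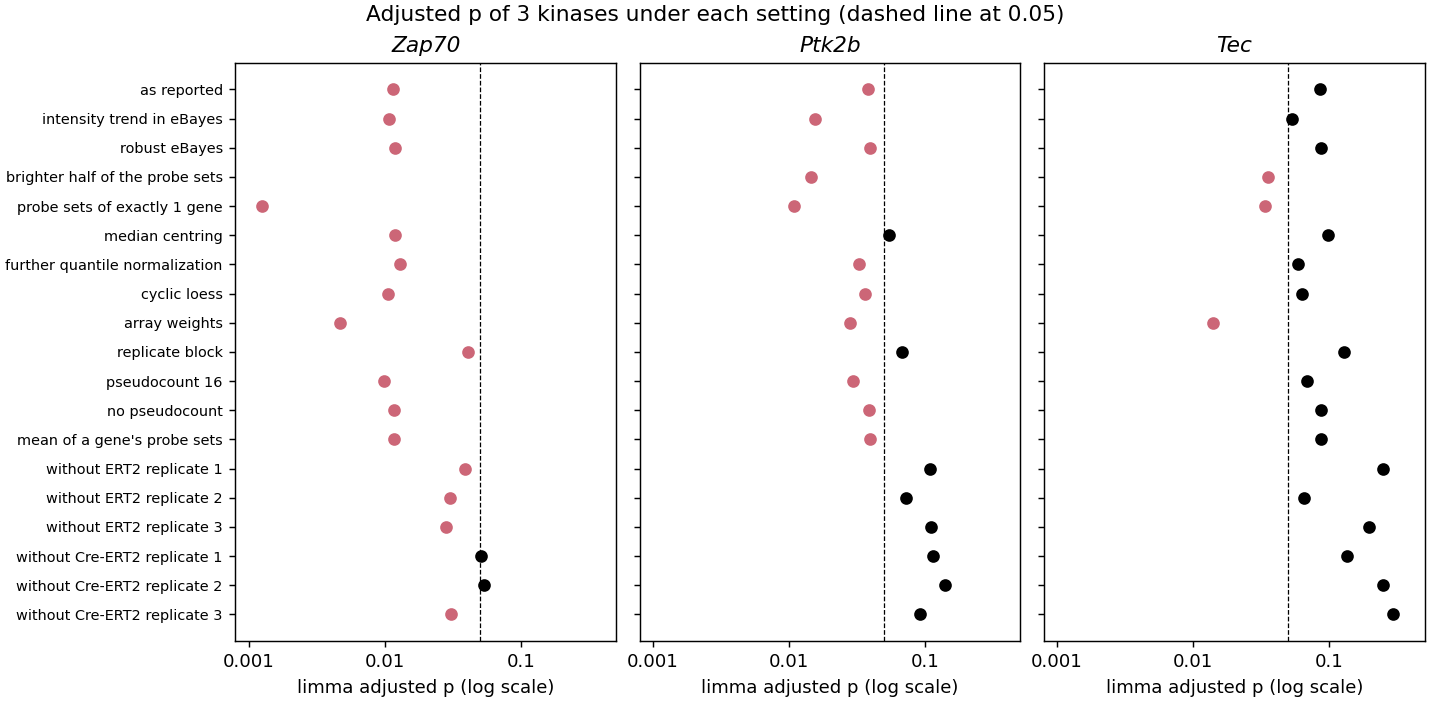
Adjusted p (limma, log axis) of Zap70, Ptk2b and Tec as reported and under each alternative setting, in red below the dashed line at 0.05. Zap70 passes in all but 2 of the settings that tested it, Ptk2b passes in none that leaves out an array, and Tec passes in 3. The setting restricted to brighter probe sets did not test Zap70.

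Among 18 relatives of these kinases 1 was called (5.56%, near the 8.1% of all genes). Of 6 other Src-family and Src-like kinases tested (Src, Fgr, Frk, Srms, Ptk6 and Matk) 0 rose and 0 fell by limma, although Srms and Matk had unadjusted p of 0.0482 and 0.0292 and differences of -0.18 and -0.16. In both Srms and Matk the groups did not overlap, which was so for 28.3% of all genes. Lyn was not analysed here. Of 12 other cytoplasmic tyrosine kinases 0 rose and 1 fell: Tnk2, which encodes the CDC42-associated kinase ACK1, with a difference of -0.32 (SE 0.063, adjusted p = 0.0349 by limma). Dropping any single array ended its call (0.052 to 0.139). Tyk2, a Janus kinase, had a difference of 0.29 with groups that did not overlap, and did not pass (adjusted p = 0.0656 by limma). It passed in 6 of 18 alternatives, with adjusted p from 0.0178 to 0.21 over all of them. With the 8 above, 3 of 26 measured cytoplasmic tyrosine kinases were called (11.5%), which is also near the share of all genes.

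A larger share was called of the listed phosphatases and brakes, and of the adaptors and substrates that carry the signal of these kinases. Of 23 phosphatases and brakes 3 rose and 5 fell (34.8% called, beside 8.1% of all genes), with a median of 0.05. That list holds phosphatases as well as brakes, so a rise or fall in it gives no direction of effect on the kinases. Of 32 adaptors and substrates 5 rose and 3 fell (25% called), with a median of -0.03, so the calls went both ways in each list. Most genes of both lists were bright: 21 of 23 phosphatases and brakes and 29 of 32 adaptors read above the array median on all 6 arrays. The same held for 2 of 6 other Src-family and Src-like kinases and 8 of 12 other cytoplasmic tyrosine kinases. The 8.1% is taken over genes of every brightness, and the share called among genes of like brightness was not tested. These lists were chosen with earlier results of the same samples known, and no test of either list was made.

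Among the phosphatases and brakes Ptpn12 and both Ubash3 genes fell, and Sla2 and Ptpre rose. Ptpn12, which encodes PTP-PEST, a phosphatase that acts on PYK2 and the scaffold p130Cas, read 1474, 1655 and 1509 in ERT2 and 504, 501 and 517 in Cre-ERT2 samples. It fell by 1.60 (SE 0.0589, adjusted p = 4.4e-05 by limma), to 32.8% of the control mean. Ubash3a and Ubash3b, the STS phosphatases that dampen Zap70 and Syk signalling, fell as well, with differences of -0.70 (SE 0.0467) and -1.21 (SE 0.113).

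Sla2, which encodes the Src-like adaptor SLAP-2 that lowers antigen receptor signals with Cbl, rose by 0.94 (SE 0.0519), from 1346 ± 61.4 (SD, n = 3) to 2577 ± 28.2 (SD, n = 3). Ptpre, a receptor-type phosphatase known to act on Src-family kinases, rose by 0.84 (SE 0.0677). Limma's adjusted p for Ubash3a, Ubash3b, Sla2 and Ptpre lay between 0.000194 and 0.00146, and these 4 genes and Ptpn12 kept their calls in every alternative that tested them.

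The other called genes in the list of phosphatases and brakes were named after their values were seen. Pag1, the membrane adaptor that holds Csk near Src-family kinases, rose by 0.35, and Dok3 and Inppl1, an adaptor and a lipid phosphatase, fell, with differences of -0.39 and -0.32. Each lost its call in some arrangements of the arrays: Pag1 with any array but ERT2 replicate 2 dropped (adjusted p from 0.0698 to 0.114 by limma), and Dok3 and Inppl1 with ERT2 replicate 1 or a Cre-ERT2 array dropped (0.0537 to 0.0806). The number of fallen genes in this list was then 3.

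Lcp2, which encodes SLP-76, the adaptor that Zap70 phosphorylates in T cells, fell by 0.88 (SE 0.0451), from 923 ± 15.6 (SD, n = 3) to 501 ± 9.66 (SD, n = 3). Lat, the membrane scaffold that is the other main substrate of Zap70, rose by 0.47 (SE 0.0536), from 643 ± 32.6 (SD, n = 3) to 889 ± 5.84 (SD, n = 3). Nck2, an adaptor that links phosphotyrosine to actin, fell by 0.76 (SE 0.0752). Plcg2, the phospholipase that Btk activates in B cells, rose by 0.38 (SE 0.0539). Blnk, the adaptor that Syk phosphorylates in pre-B cells, had a difference of -0.09 (adjusted p = 0.424 by limma), with groups that did not overlap. The adjusted p of Lcp2, Lat, Nck2 and Plcg2 lay between 0.00014 and 0.0091, and all 4 kept their calls in every alternative.

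Lat2, the B-cell relative of Lat, rose by 0.43 (adjusted p = 0.0288 by limma). That call held with ERT2 replicate 3 dropped, and ended with any other array dropped (0.0638 to 0.109). The remaining called adaptors, named after their values were seen, were Vav1, a guanine nucleotide exchange factor that rose by 0.27, Pxn, given above, and Pik3ap1, an adaptor of PI3K that fell by 0.27. The call of Vav1 held with ERT2 replicate 2 dropped and ended with each other array dropped (0.074 to 0.137), and that of Pik3ap1 ended whichever array was dropped (0.0682 to 0.149). The number of risen adaptors was 2 with ERT2 replicate 1 or a Cre-ERT2 array dropped and 3 with ERT2 replicate 3 dropped, against 5 with all arrays.

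**Figure D4:**
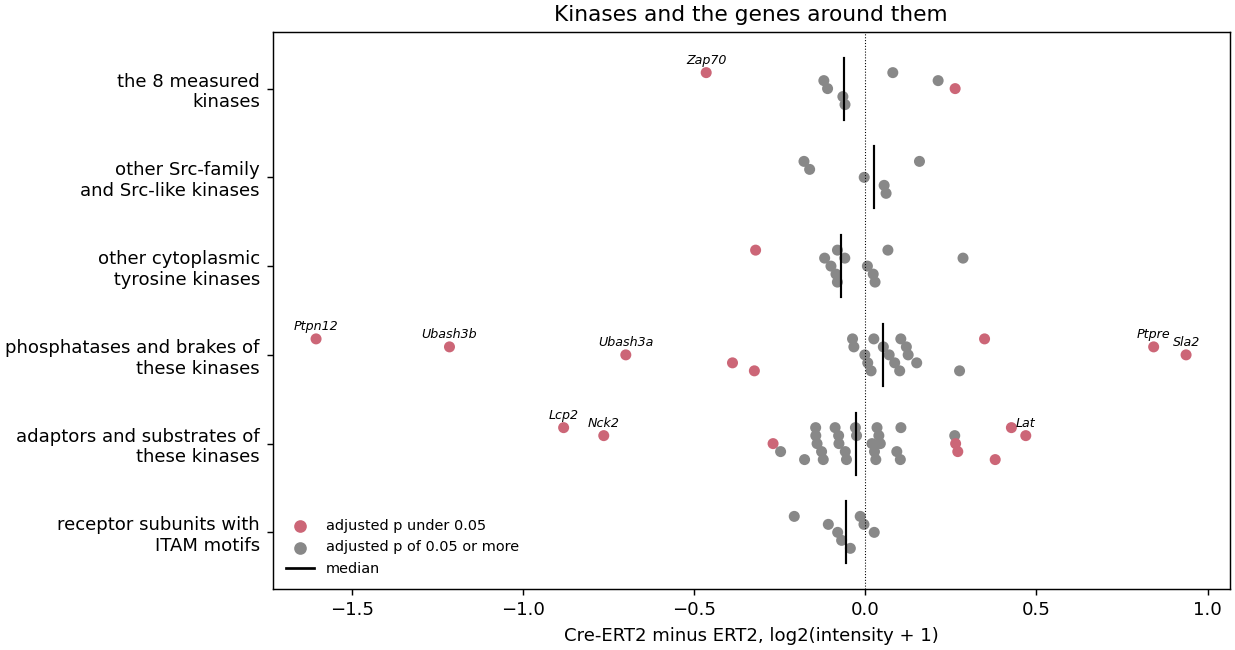
Difference between Cre-ERT2 and ERT2 samples for each measured gene of the 8 kinases and of 5 lists around them, on the log2(intensity + 1) scale, in red where limma's adjusted p was under 0.05, with a line at each median. Called genes past 0.45 in size are named. The kinase rows run from -0.46 to 0.29, while the phosphatases and brakes run from -1.60 to 0.94 and the adaptors from -0.88 to 0.47.

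Markers of other cells moved with the groups in part. Of 9 myeloid markers Lyz2, the lysozyme gene, rose by 1.40 and Itgam, an integrin of myeloid cells, fell by 0.49. That is 22.2% of the list called, beside 8.1% of all genes. Csf1r, Csf3r, Mpo and Elane had differences of -0.02, 0.01, 0.13 and -0.07, none past the test. Mpo had an unadjusted p of 0.0417 by limma. Among uncalled markers Mpo and Cd14 (0.14) lay higher on every Cre-ERT2 array than on any control, and Adgre1 (-0.06) lay lower. The summed intensity of that list ran from 1746 to 1748 in ERT2 and from 2121 to 2331 in Cre-ERT2 samples, and Lyz2 carried that rise. The other 8 myeloid markers summed to between 1367 and 1438 in ERT2 and between 1298 and 1350 in Cre-ERT2 samples. Of pre-B cell markers 1 of 13 rose and 3 fell (Dntt up, Il7r, Rag1 and Rag2 down), which is 30.8% called, beside 8.1% of all genes. Their summed intensity ran from 97575 to 97991 in ERT2 and from 92693 to 93961 in Cre-ERT2 samples, so these ranges did not overlap. The part of these shifts in the values of Zap70, Ptk2b or the listed genes was not tested.

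The genes whose pattern over the 6 arrays was most like that of a called kinase were found by the root mean square difference of log2 values after each gene's mean was removed. For Zap70 these were Pja1 (0.0502), Nlrc4 (0.0531) and S100a13 (0.0546), which had group differences of -0.49, -0.49 and -0.42. For Ptk2b they were Cdk5rap3 (0.00672), Galns (0.0151) and Smim24 (0.0152), with group differences of 0.26, 0.26 and 0.25. Many genes share a step between the groups, so closeness over 6 arrays is a description of the values alone.

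Since the deleted gene encodes a DNA-binding protein, the sequence before the kinases' start sites was searched for the site AACAAAG, which SOX4 is known to bind, and for its core ACAAAG, which lies within it, on both strands. Windows ran from 250 bases before to 50 after each start in RefSeq's annotation of GRCm38.p6, and 6 of the 8 measured kinases had 10 windows between them. No window was at hand for Blk or for Ptk2b, the other called kinase. Among all 32851 windows of that length 5.85% held AACAAAG and 18.7% held ACAAAG. Among the 10 the longer site occurred in 1 (Abl1), and the core in 3 (Abl1, Csk and Zap70). The windows of Zap70, which fell, and Abl1, which holds the longer site and did not pass the test, are shown up to the start site. They were picked with these outcomes known, and Csk, which holds the core and did not pass either, is not shown. No link between a match and a change was tested. Capitals mark the core or its reverse complement, 94 bases before the start in Zap70 and 27 bases before it in Abl1. The Zap70 window, chr1:36778734-36778983 on the + strand, precedes the last of 3 starts in that annotation, inside the gene, and the windows of the other starts had no match. The Abl1 window is chr2:31759689-31759938 on the + strand, and the window of the other Abl1 start had no match.
Zap70: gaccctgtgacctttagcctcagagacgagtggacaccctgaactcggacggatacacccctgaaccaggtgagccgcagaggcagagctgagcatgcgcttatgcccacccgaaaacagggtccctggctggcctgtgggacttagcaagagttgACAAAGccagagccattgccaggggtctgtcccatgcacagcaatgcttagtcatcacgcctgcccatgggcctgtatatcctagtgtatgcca
Abl1: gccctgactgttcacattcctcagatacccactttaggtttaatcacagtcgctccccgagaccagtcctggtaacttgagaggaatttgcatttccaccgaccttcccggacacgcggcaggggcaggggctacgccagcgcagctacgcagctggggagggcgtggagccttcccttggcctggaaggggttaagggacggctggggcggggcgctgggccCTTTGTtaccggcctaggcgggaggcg
These matches are descriptions of letters in a short window, and binding of SOX4 was not measured in these samples.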

How the data were processed

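Biotin-labelled total RNA of 6 samples was read on Affymetrix arrays, 1 per sample, per the labels' protocols. The deposited values are intensities that the authors made with RMA (background correction, quantile normalization and probe summarization), per the submitters' processing notes. The sources used here give no software version or build. The intensities run from 6.27 to 26714, a linear scale, so log2(intensity + 1) was used, which understates changes of dim genes slightly. Quantile normalization would hide a shift of all genes. The probe table names 1 gene for 21789 of 35556 probe sets, several for 1621 and none for 12146, and a gene was taken from its probe set with the highest mean log2 value.

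The groups were compared in R 4.3.3 with limma 3.58.1 (linear model and eBayes, no covariates, all probe sets, Benjamini-Hochberg), and adjusted p-values are limma's. The fit was tried on simulated data. Members, lists and motifs were chosen with earlier results of these data known. The rule for named genes took the members, Sox4, up to 5 called genes per list with the smallest p, and the 3 genes most like each called kinase. Further called genes, relatives of the kinases, adaptors and markers are named outside that rule, after their values were seen. Older symbols of list members were matched through the gene table. Alternatives were an intensity trend, robust fitting, brighter or singly named probe sets, median centring, quantile or cyclic loess normalization, array weights, a replicate block, a pseudocount of 16 or none, a gene's mean over probe sets, and each array left out.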

Additional observations from a re-analysis of the deposited data

How the results depend on the processing

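Sox4, Fyn, Blk, Yes1 and Abl1 kept their sign and their side of the threshold in every alternative that tested them. Tec passed among the brighter probe sets (0.21), among those naming 1 gene (0.21) and with array weights (0.25), each giving 2 kinases called higher. The first 2 of these test fewer probe sets. The brighter set leaves out Zap70 and Yes1, so 0 kinases were lower there. Ptk2b lost its call under median centring (0.25) and with the replicate number as a block (0.26, adjusted p = 0.0681 by limma), each giving 0 kinases higher; the cause was not tested. The replicate block also took the listed genes called higher from 8 to 5 and lower from 9 to 7, ending the calls of Lat2, Vav1, Pxn, Pik3ap1 and Dok3 (adjusted p from 0.0553 to 0.0769 by limma). Deviations of same-numbered arrays correlated with 0.205, 0.344 and -0.049. Differently numbered arrays were not set beside them, so these values cannot decide whether the numbers pair the samples. The fit reported left the numbers out. Array weights gave 2415 probe sets higher and 1612 lower, against 1143 and 1009.

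With arrays left out, which leaves fewer samples, Zap70 ran from -0.51 to -0.41, Ptk2b from 0.23 to 0.29 and Csk from -0.13 to 0.0195, where it reversed without ERT2 replicate 1. Kinases called higher numbered 0 each time and kinases called lower 0 to 1. Listed genes ran from 4 to 8 higher and 5 to 7 lower (against 9), and probe sets from 606 to 1319 higher and 654 to 883 lower. Yes1 is dim, which limits what could be detected for it. Zap70 is also rather dim, near the array median in ERT2 samples and below it in Cre-ERT2 samples. That limits how well the size of its fall is known.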
